A study of Mus musculus with 16 samples.

Results

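The genes described here encode the subunits of the mitochondrial respiratory chain that are made from nuclear genes, taken complex by complex. They were chosen by symbol from the deposited expression matrix of mouse liver tumors and the liver around them: Nduf followed by a, b, c, s or v and a digit, the 4 Sdh genes, Uqcr, Cyc1, Cox4 to Cox8 with a letter, and Atp5. Of the 88 listed genes that match, 87 had TPM (transcripts of a gene per fixed total of all transcripts, corrected for gene length) of at least 1 in at least 4 of the 16 libraries, and these are the members. The same filter kept 13432 of the 20601 listed genes. Cox8c, the member left out, had 1 read in 1 library. The members were 36 genes of complex I, 4 of complex II, 9 of complex III, 18 of complex IV and 17 of complex V, plus 3 copies of complex I genes (Ndufa12-ps, Ndufb4c and Ndufs6b) that the GENCODE annotation lists as processed pseudogenes and that were kept apart. The row named Ndufb1 is typed in GENCODE as a bidirectional promoter long noncoding RNA and was kept with complex I by its symbol. Ndufa4, its paralog Ndufa4l2 and Cox7a2l were placed with complex IV. The subunits made from mitochondrial DNA were not analysed here, and Ndufab1, a complex I subunit whose symbol lies outside the pattern, is given with the other pathway genes.

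All mice carried liver tumors driven by plasmids for human NRAS (19 μg) and human c-MYC (1 μg), given by hydrodynamic delivery with 2 μg of a plasmid for Sleeping Beauty transposase, so the nontumor liver came from animals that had received the same plasmids. From week 4 the mice ate either a normal diet (ND) or a ketogenic diet (KD) of 0.1% carbohydrate, 89.5% fat and 10.4% protein, and tissue was taken at week 8, after 4 weeks on the diet. The 16 RNA-seq libraries, from 8 mice, formed 4 groups of 4: ND nontumor, ND tumor, KD nontumor and KD tumor. Which tumor and nontumor libraries came from 1 mouse, and the strain, sex and age, were not given in the sources used here, so p-values measure the spread between these libraries only. Hepatocyte markers were abundant in every library, and the summed level of Afp and Gpc3, a pair of liver tumor markers, was 15.3 to 449 in tumors against 1.30 to 6.76 in nontumor liver.

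The respiratory chain passes electrons from NADH (complex I) and succinate (complex II) through ubiquinone to complex III, then through cytochrome c to complex IV, which reduces oxygen. Complexes I, III and IV pump protons, and complex V, the ATP synthase, uses the gradient. In the liver the chain takes the electrons released by fatty acid oxidation, and most of its subunits are nuclear genes whose promoters are known for binding sites of NRF1, ETS factors of the GABP type, YY1 and estrogen-related receptors (ERR).

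Promoter windows from 250 bases before to 50 bases after the start site were matched for 68 members in RefSeq (GRCm38.p6). The NRF1 consensus motif lay in 17 of the 68 windows (25%) and in 5.19% of the windows of all 27025 genes. The other motifs searched, also on both strands, were CCGGAAG for ETS factors in 17 windows (25%, against 9.93% of all genes), AANATGGCG for YY1 in 10 (14.7%, against 2.76%) and TCAAGGTCA for ERR in 2 (2.94%, against 0.466%). A gene was counted once per motif, and overlaps between different motifs were not removed. The stretches of 3 genes are shown because these genes are described below and each carries a motif, given in capitals. Only bases before the start site that lie in no annotated exon are printed, and all lie on the minus strand and are written 5′ to 3′. Cox6a1 (chr5:115348982-115349129) holds the NRF1 motif at 2 places, Ndufb4 (chr16:37654454-37654618) holds it once in the stretch shown, and Atp5g3 (chr2:73911327-73911576) holds the ERR motif as its reverse complement.
Cox6a1: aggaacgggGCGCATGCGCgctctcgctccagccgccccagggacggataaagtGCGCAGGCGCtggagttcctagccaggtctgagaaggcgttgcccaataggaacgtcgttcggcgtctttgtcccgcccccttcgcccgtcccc
Ndufb4: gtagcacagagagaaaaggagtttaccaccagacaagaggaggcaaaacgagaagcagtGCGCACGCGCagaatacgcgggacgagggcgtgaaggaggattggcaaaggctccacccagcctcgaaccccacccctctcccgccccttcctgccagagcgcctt
Atp5g3: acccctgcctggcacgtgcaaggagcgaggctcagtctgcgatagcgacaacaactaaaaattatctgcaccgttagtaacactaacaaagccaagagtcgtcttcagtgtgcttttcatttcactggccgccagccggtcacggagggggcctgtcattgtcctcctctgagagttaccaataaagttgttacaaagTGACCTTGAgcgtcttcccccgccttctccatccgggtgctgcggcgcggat
A match is a description of these letters only. The NRF1 motif was found in 8 of the 25 matched members that were higher in KD tumors than in ND tumors and in 9 of the 43 that were not higher. For the ETS motif these numbers were 5 of 25 and 12 of 43. They were 3 and 7 for YY1, and 2 and 0 for ERR. A link between a motif and the change was not tested.

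Levels are TPM rescaled so that the middle gene agrees between libraries (called rescaled TPM), and fold changes are differences of log2(rescaled TPM + 1) from 1 limma fit of all 16 libraries, adjusted by the Benjamini-Hochberg method over 13432 genes with a threshold of 0.05. Rescaling was needed because the listed genes held from 7.38% (ND nontumor 4) to 88.4% of the TPM total. Depth recovered from the values was about 3473000 reads in ND nontumor 4 and 5599000 to 13921000 in the others. Without that library the members passing were 19 in place of 16 for tumor against nontumor on ND, 2 in place of 1 for the interaction, and again 0 for the diets in nontumor liver. In bulk tissue, fewer cells of a type and less RNA per cell cannot be told apart.

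The members' summed level was 5470 and 5537 rescaled TPM in the lowest libraries, ND tumor 3 and KD nontumor 3, and 17560 and 18410 in the highest, KD nontumor 1 and KD tumor 3. ND tumor 3 held the lowest value of 33 of the 87 members and KD nontumor 3 of 29, whereas KD tumor 3 held the highest of 32, KD nontumor 1 of 19 and ND nontumor 3 of 18. The heat map of all members by library shows these columns as bands that cross every complex.

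**Figure D1:**
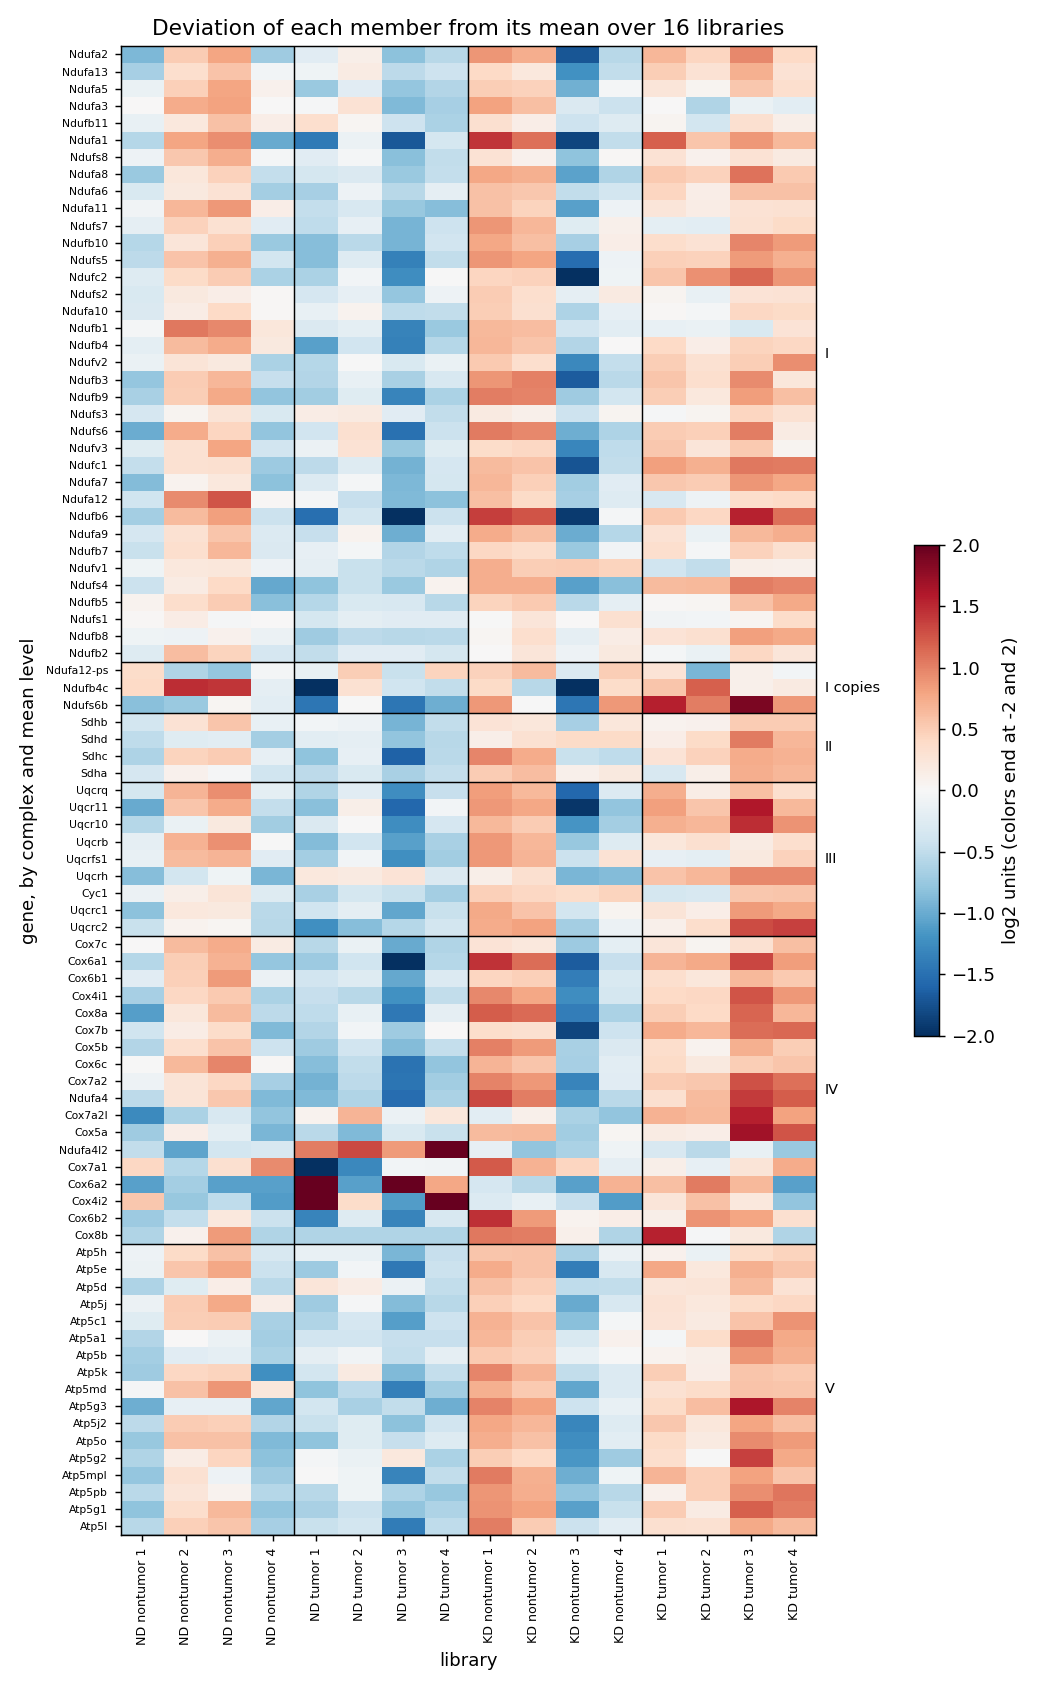
Deviation of each of the 87 members (rows, by complex and then by mean level) from its own mean over the 16 libraries (columns, by group), in log2(rescaled TPM + 1) units. KD tumor libraries are mostly above the mean and ND tumor libraries mostly below it, while each nontumor group holds libraries of both kinds. Ndufa4l2, Cox4i2, Cox6a2 and Ndufa12-ps go the other way between the tumors.

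Complex I averaged 5.93, 6.70, 6.84 and 5.95 log2 units per gene in ND nontumor 1 to 4, and 6.91, 6.83, 5.43 and 6.08 in KD nontumor 1 to 4. In tumors it averaged 5.82, 6.15, 5.45 and 5.86 on ND and 6.59, 6.45, 6.90 and 6.77 on KD. The KD tumors all lay above the ND tumors, and the nontumor libraries of both diets spanned most of that range. Complexes II, III, IV and V had the same arrangement of tumors, with ND tumors at 4.92 to 5.72, 6.44 to 7.15, 4.63 to 5.35 and 5.60 to 6.18 and KD tumors at 5.96 to 6.67, 7.60 to 8.20, 5.74 to 6.21 and 6.63 to 7.21. The median member varied more between nontumor libraries of 1 group (SD 0.513 on ND and 0.700 on KD) than did the median gene tested (0.292 and 0.313). In tumors the median SD was 0.363 on ND and 0.284 on KD, against 0.336 and 0.265 for all genes.

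**Figure D2:**
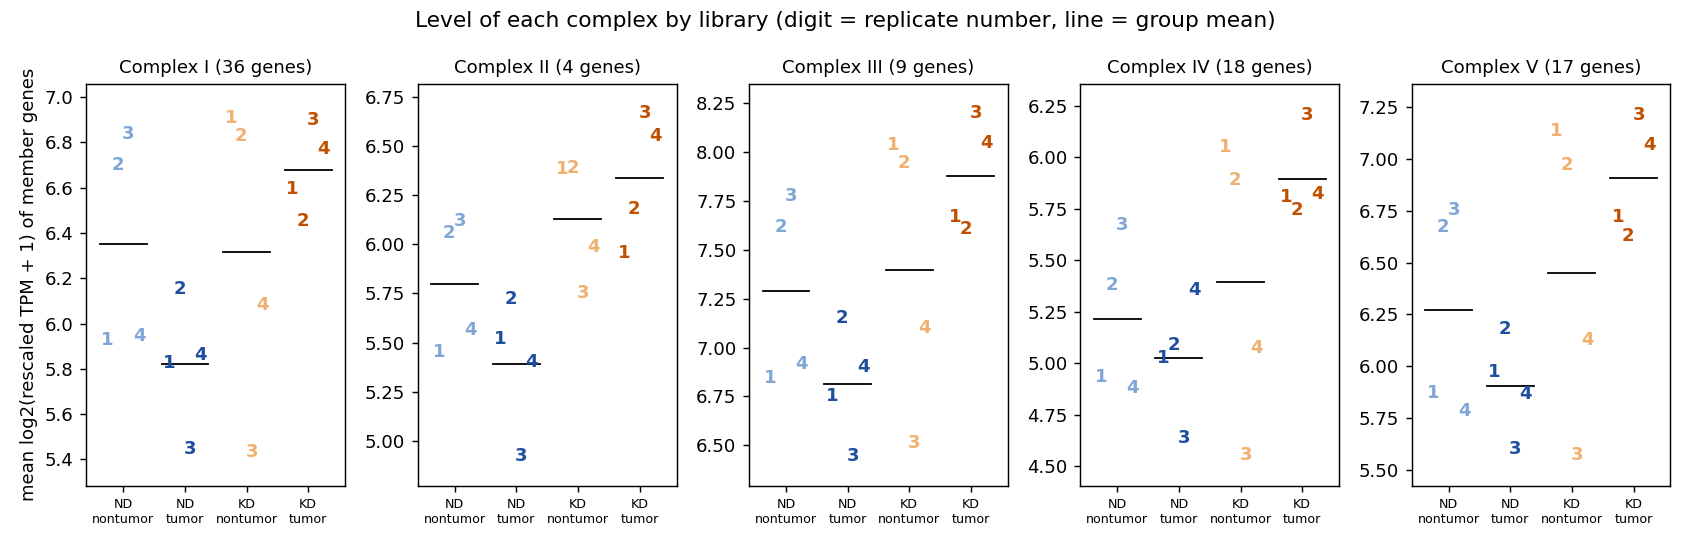
Mean log2(rescaled TPM + 1) of the members of each complex (one panel each, vertical axis) in the 4 groups (horizontal axis); each digit is 1 library, named by its replicate number, and the line is the group mean of 4 libraries. In every complex the 4 KD tumors sit above the 4 ND tumors, and nontumor libraries 1 and 2 on KD, like 2 and 3 on ND, sit above the other two of their group.

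Gene length moved with these library differences. The members are short: their median length was 1495 bases of exon, against 4019 for genes tested, and 57 of the 87 lay in the shortest quintile of genes (2037 bases or less). The median deviation of those short genes from their mean over libraries was -0.37 in KD nontumor 3, -0.28 in ND tumor 3, -0.24 in KD nontumor 4, -0.24 in ND nontumor 4 and -0.22 in ND nontumor 1, and 0.12 to 0.30 in the KD tumors. The members' median deviation in those libraries was -0.72, -0.83, -0.22, -0.45 and -0.44, and 0.23 to 0.71 in the KD tumors. With the length trend of each library removed, the members' medians were -0.53, -0.71, -0.07, -0.30 and -0.27, and 0.12 to 0.46 in KD tumors, and -0.71 to -0.24 in ND tumors. Refits with that trend removed are given below for the diets in tumors and for tumor against nontumor liver. The part of length in the differences between groups was otherwise not tested.

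**Figure D3:**
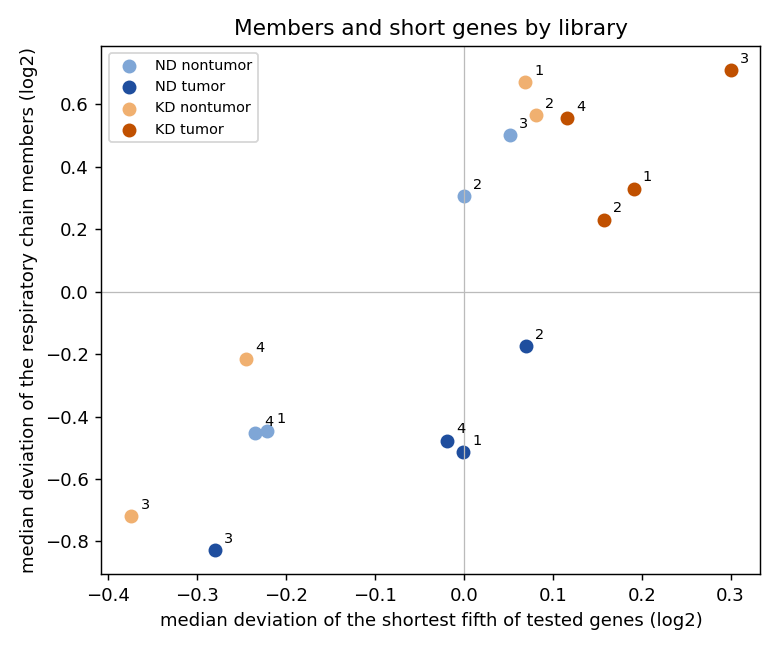
Median deviation from the 16-library mean of the shortest quintile of tested genes (horizontal axis, log2) against that of the respiratory chain members (vertical axis, log2); each point is 1 library, colored by group and labelled with its replicate number. ND tumors 1, 2 and 4 have short genes near 0 and members at -0.51, -0.17 and -0.48, whereas all KD tumors have both above 0.

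Ketogenic against normal diet in tumors was the comparison in which the most members changed. Of 87 members, 34 were higher and 1, Ndufa4l2, was lower in KD tumors; 15.7% of all genes tested passed, 7.21% higher and 8.49% lower. By complex, 9 of 36 in complex I rose, 3 of 4 in II, 5 of 9 in III, 9 of 18 in IV and 7 of 17 in V. The median log2 fold change was 0.81 for complex I, 0.89 for II, 1.01 for III, 1.25 for IV and 1.03 for V, against 0.03 for all genes. All these medians stayed above 0 on the deposited scale (0.77 to 1.21), with listed genes scaled to a common sum (0.34 to 0.80), and without any 1 library (0.73 to 1.35). With the length trend removed they were 0.61, 0.78, 0.96, 0.88 and 0.92, and 37 members passed (36 higher, 1 lower). The share of all genes called in that fit is not given here. Non-overlapping groups were found for 64 members, in 63 of which every KD tumor was above every ND tumor, against 22.9% of genes tested in either direction. How many members passed rested on single libraries: the count of 35 became 10 without KD tumor 3, 12 without KD tumor 4, 14 without ND tumor 3 and 16 without ND tumor 1. It was 23 (22 higher, 1 lower) on the common sum and 2 (1 higher, 1 lower) on the deposited scale, where 0.841% of genes were called. The all-gene shares on the common sum are given below with the assembly factors.

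**Figure D4:**
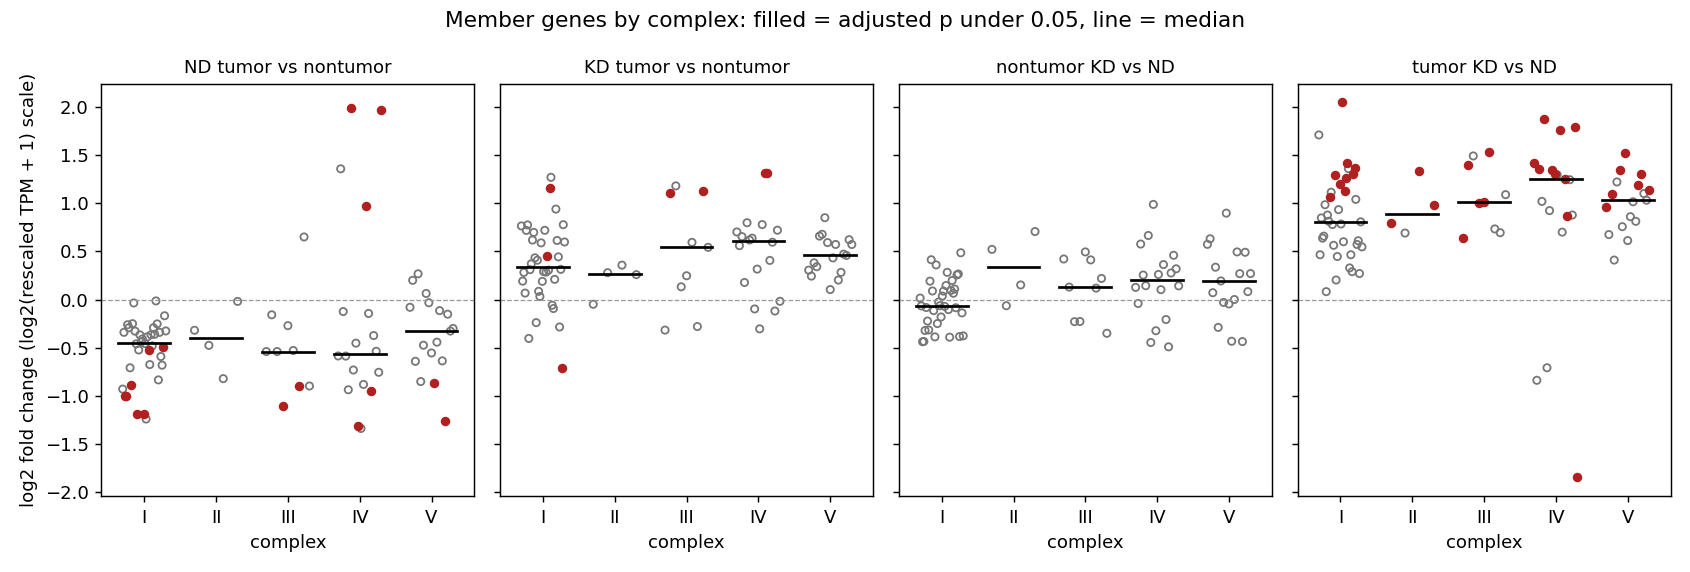
Log2 fold change of each member of complexes I to V (points, vertical axis; the 3 complex I copies are not drawn) by complex (horizontal axis) in 4 comparisons (panels); filled points have an adjusted p under 0.05 and the line is the median of the complex. The medians lie above 0 for KD against ND tumors, where 33 points are filled above 0; they lie below 0 for tumor against nontumor on ND, but above 0 on the deposited TPM scale, and above 0 on KD, where that of complex II is -0.06 on the deposited and common-sum scales.

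In complex I, Ndufb6, an accessory subunit of the membrane arm, had 15.6, 35.98, 8.53 and 34.2 rescaled TPM in ND tumors and 67.4, 62.0, 137 and 101 in KD tumors. The groups did not overlap, and the difference was 2.05 ± 0.62 (SE; adjusted p = 0.0357, limma). Ndufc1, also of the membrane arm, had 42.7, 51.6, 31.6 and 48.6 on ND and 110, 102, 129 and 128 on KD, a difference of 1.42 ± 0.40 (adjusted p = 0.0275, limma). Ndufb8, another membrane arm subunit, was singled out after its values were seen because it was the member with the smallest adjusted p in this comparison among those that rose. Its levels were 7.17, 8.30, 8.02 and 8.18 in ND tumors and 15.2, 15.6, 22.6 and 21.4 in KD tumors, 1.12 ± 0.16 higher (adjusted p = 0.000844, limma), and the call held without any 1 library (highest adjusted p 0.00434). Ndufb4 was 43.5, 70.9, 35.7 and 62.3 on ND and 123, 102, 128 and 124 on KD. Among the subunits that carry electrons, Ndufv1, which binds NADH and the flavin FMN, had 26.4 to 35.5 in ND tumors and 28.3 to 44.0 in KD tumors. Ndufs1, the largest iron-sulfur subunit, had 10.1 to 11.4 and 12.5 to 17.2. Neither of these passed the test.

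Complex II, succinate dehydrogenase, is shared by the respiratory chain and the citric acid cycle. Sdhd, one of the membrane anchors, had 48.9, 49.5, 32.4 and 38.1 rescaled TPM in ND tumors and 62.1, 73.8, 117 and 89.7 in KD tumors, a rise of 0.98 ± 0.20 (adjusted p = 0.00582, limma) that held without any 1 library. Sdhc, the other anchor, had 28.9, 45.7, 16.02 and 35.1 against 62.2, 71.4, 86.8 and 84.1 and rose by 1.33 ± 0.37 (adjusted p = 0.0242, limma). Sdha, the subunit that oxidises succinate and carries FAD, had 20.9, 24.4, 19.0 and 21.7 against 24.3, 33.3, 51.3 and 49.0. Its groups overlapped, in that KD tumor 1 (24.3) lay below ND tumor 2 (24.4), and the difference was 0.79 ± 0.22 (adjusted p = 0.0233, limma). Sdhb, the iron-sulfur subunit and the most abundant of the 4, had 72.6 to 134 on ND and 146 to 199 on KD and did not pass (adjusted p = 0.0864, limma).

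Complex III, the cytochrome bc1 complex, had 5 members that rose. Uqcrc2, a core protein, had 12.4, 16.3, 19.98 and 23.1 rescaled TPM in ND tumors and 32.5, 38.9, 75.8 and 79.1 in KD tumors, a rise of 1.53 ± 0.35 (adjusted p = 0.00956, limma) kept without any 1 library. Its partner Uqcrc1 had 50.8, 59.2, 32.2 and 48.8 against 80.0, 73.9, 122 and 114, a rise of 1.01 ± 0.29 (adjusted p = 0.0297, limma). Uqcr10, a small membrane subunit, had 225, 276, 116 and 218 against 451, 434, 764 and 512 and rose by 1.40 ± 0.38 (adjusted p = 0.0238, limma). Cyc1, cytochrome c1, had 58.0, 71.4, 66.9 and 56.7 against 72.0, 73.3, 134 and 135, so KD tumors 1 and 2 lay just above the ND range and 3 and 4 well above it. The difference was 0.64 ± 0.21 (adjusted p = 0.0491, limma). Uqcrfs1, the Rieske iron-sulfur protein, had 103 to 232 on ND and 210 to 331 on KD and did not pass. Uqcrq, the most abundant complex III member, had 226 to 459 and 597 to 895 and did not pass either.

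In complex IV, cytochrome c oxidase, the largest rise was that of Cox6a1, the form of subunit 6a used outside muscle. It had 244, 305, 87.3 and 273 rescaled TPM in ND tumors and 651, 684, 1024 and 724 in KD tumors, a rise of 1.88 ± 0.58 (adjusted p = 0.0381, limma). Ndufa4 rose from 34.4, 42.0, 21.7 and 41.1 to 80.1, 99.5, 170 and 150, by 1.80 ± 0.47 (adjusted p = 0.0196, limma). Cox7a2, the liver-type form of subunit 7a, had 49.4, 66.2, 34.2 and 58.6 against 137, 140, 232 and 206, a rise of 1.76 ± 0.41 (adjusted p = 0.0118, limma) that held without any 1 library. Cox4i1, the main regulatory subunit, had 216, 204, 129 and 211 against 394, 398, 716 and 546 and rose by 1.41 ± 0.43 (adjusted p = 0.0352, limma). Cox5a, at lower levels, had 6.44, 4.88, 7.77 and 6.94 against 11.2, 10.9, 33.6 and 24.9, and its rise of 1.35 ± 0.36 (adjusted p = 0.0207, limma) was largest in KD tumors 3 and 4. Cox7b and Cox7c, small membrane subunits, rose by 1.25 ± 0.40 and 0.87 ± 0.27 (adjusted p = 0.0451 and 0.0386, limma). Cox5b (85.6 to 121 and 166 to 259), Cox6b1 (225 to 383 and 539 to 720) and Cox8a (107 to 260 and 380 to 649) did not overlap between the diets and did not pass.

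In complex V, 7 of 17 members rose. Of the 3 genes for subunit c, which encode the same mature protein of the rotor ring, Atp5g3 had 53.8, 44.0, 49.5 and 34.8 rescaled TPM in ND tumors and 91.1, 107, 216 and 139 in KD tumors, a rise of 1.52 ± 0.34 (adjusted p = 0.00868, limma) that held without any 1 library. Atp5g1 had 21.4, 24.9, 19.3 and 21.8 against 49.0, 38.2, 79.4 and 70.2 and rose by 1.35 ± 0.42 (adjusted p = 0.0386, limma). Atp5g2 had 37.0 to 67.4 and 57.3 to 150, with overlap, and did not pass. Atp5a1, the alpha subunit of the catalytic head, had 93.4, 93.7, 88.6 and 88.4 in ND tumors and 120, 158, 256 and 207 in KD tumors, a rise of 0.96 ± 0.25 (adjusted p = 0.0195, limma). Its catalytic partner Atp5b had 76.7 to 102 and 112 to 199 and missed the threshold (adjusted p = 0.0505, limma). Atp5l, subunit g of the membrane part, had 13.7, 14.6, 6.56 and 13.03 against 24.1, 23.8, 32.8 and 30.1 and rose by 1.19 ± 0.34 (adjusted p = 0.0291, limma). Of 27 member calls named for this comparison, 10 (Atp5g3, Atp5md, Cox6c, Cox7a2, Ndufa4l2, Ndufb4, Ndufb8, Ndufs6b, Sdhd and Uqcrc2) held without any 1 library; 17 were lost without KD tumor 3, 16 without KD tumor 4, 14 without ND tumor 3 and 12 without ND tumor 1, at adjusted p of up to 0.155 in limma. The remaining 4 tumor libraries each cost 4 or 5.

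Markers of the cell types a liver tumor could hold were summed in the same libraries. The 5 listed of 6 hepatocyte markers were detected in all libraries and summed to 58320 to 110400 rescaled TPM in ND tumors and 112800 to 160600 in KD tumors; 0 of the 5 passed the test between the diets. In nontumor liver their sum was lowest in KD nontumor 3 (26970) and ND nontumor 1 (41870), where the members were low too. Of 5 endothelial markers, 2 were higher and 2 lower in KD tumors, with sums of 43.9 to 80.4 against 59.1 to 100 on ND. Of 5 Kupffer cell markers, 2 were higher and 0 lower in KD tumors, with sums of 25.9 to 54.3 against 7.60 to 31.9. The 5 T and NK cell markers summed to 10.5 to 37.7 in KD tumors and 24.1 to 83.7 in ND tumors, and the 5 monocyte and macrophage markers to 878 to 2714 and 620 to 2205. The 4 cholangiocyte markers summed to 20.6 to 39.2 in ND tumors and 7.16 to 12.3 in KD tumors, apart in every library. Most of that sum was Sox9, at 19.4 to 37.7 in ND tumors and 5.49 to 8.09 in KD tumors. Krt19, Krt7 and Epcam were at 0 to 3.56 in tumors and overlapped between the diets. Of the 3 cholangiocyte markers tested, 1 was lower on KD, and their median log2 fold change was 0.458. The part of any of these in the members' difference was not tested.

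Ndufa4l2 was the 1 member lower in KD tumors. It is a paralog of Ndufa4 known as a target of the hypoxia-inducible factor HIF-1, and lies at chr10:127514967-127517154 on the plus strand (GRCm38). Its level was 17.1, 21.3, 15.1 and 47.3 rescaled TPM in ND tumors (87, 116, 91 and 376 reads), against 5.30, 3.26, 5.92 and 6.11 in ND nontumor liver, 6.94, 4.12, 4.75 and 7.36 in KD nontumor liver, and 6.12, 5.14, 6.97 and 4.33 in KD tumors. Every ND tumor was above each of the other 12 libraries, and ND tumor 4 was the highest. It was 1.97 ± 0.29 higher in ND tumors than in ND nontumor liver (adjusted p = 0.000125, limma) and fell by 1.85 on the log2 scale from ND to KD tumors (SE 0.29, adjusted p = 0.00165, limma). Both calls held under every alternative run, scales and single libraries included. Its log2 fold change between KD tumor and KD nontumor was -0.02 (adjusted p = 0.968, limma), and it was the 1 member that passed the test of a different diet effect in tumor and nontumor liver (interaction -1.99 ± 0.42, adjusted p = 0.041, limma), a call lost in 11 of 16 fits that left out 1 library and on the deposited scale (adjusted p = 0.101). As a share of Ndufa4 and Ndufa4l2 together, it was 33.2% to 53.5% in ND tumors, 2.81% to 7.10% in KD tumors, 4.06% to 15.1% in ND nontumor liver and 3.04% to 14.4% in KD nontumor liver. This share does not depend on how libraries were scaled.

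**Figure D5:**
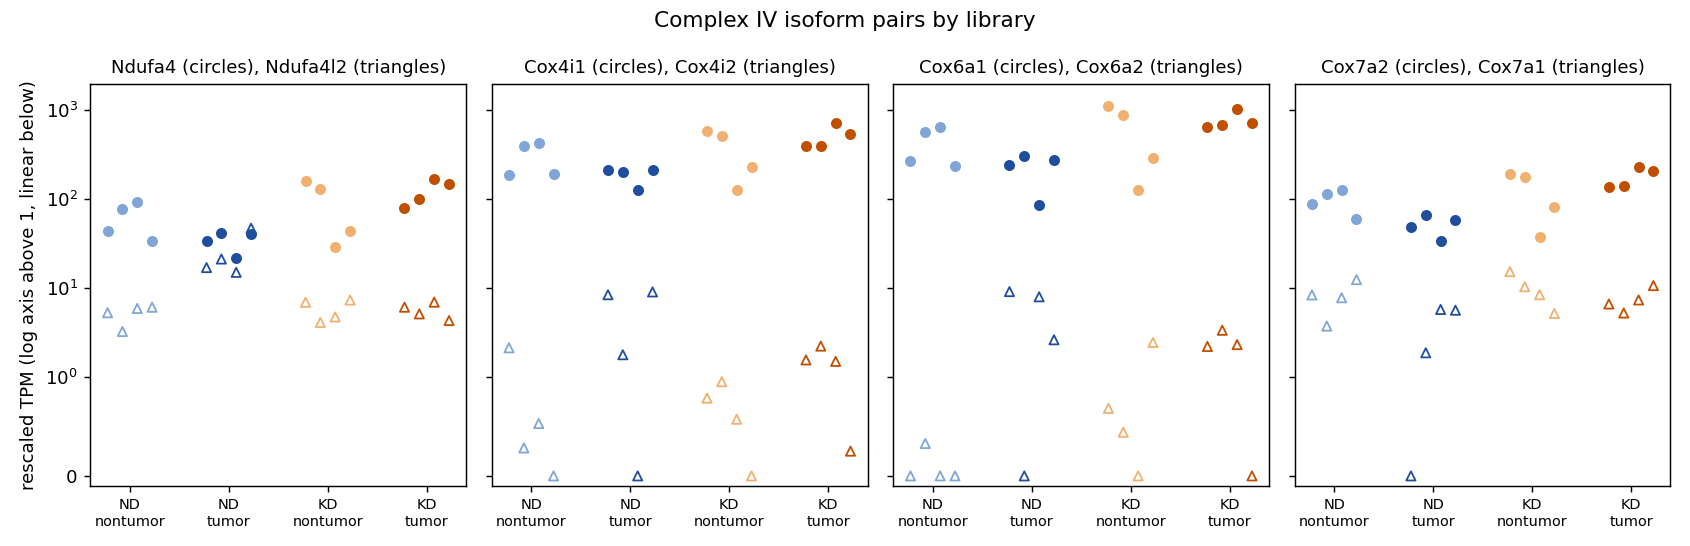
Rescaled TPM (vertical axis, log above 1 and linear below) in the 4 groups (horizontal axis) of 4 complex IV isoform pairs; each point is 1 library, filled circles the main liver form and open triangles the other form. Ndufa4l2 sits at 15.1 to 47.3 in ND tumors, next to Ndufa4 at 21.7 to 42.0, and at 3.26 to 7.36 in the other 12 libraries. The other minor forms stay below their partners, with Cox7a1 at up to 18.3% of Cox7a2 and Cox7a1 together.

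Of the remaining minor isoforms, Cox4i2, Cox6a2, Cox6b2 and Cox8b were close to the detection limit in most libraries. Cox4i2, a form of subunit 4 known from hypoxic and lung tissue, had 31, 7, 0 and 52 reads in ND tumors and at most 10 in any other library; its levels of 8.45, 1.79, 0 and 9.08 did not pass the test. Cox6a2, the muscle form of subunit 6a, had 29, 0, 30 and 13 reads in ND tumors and 0, 1, 0 and 0 in ND nontumor liver, and passed between these groups (adjusted p = 0.0226, limma), a call lost without ND tumor 1 and without ND tumor 3 (adjusted p up to 0.0813). Cox6b2, known from testis, had 0, 1.09, 0 and 0.994 rescaled TPM in ND tumors and 1.73, 3.65, 3.33 and 2.14 in KD tumors, a rise of 1.34 ± 0.34 (adjusted p = 0.0171, limma) on 0, 6, 0 and 8 reads against 14, 23, 28 and 12. Cox8b, the muscle form of subunit 8, had 0 reads in all ND tumors and at most 9 in any library. Cox7a1, the muscle form of subunit 7a, had 0 to 5.76 in ND tumors and 3.75 to 15.4 in the other groups and did not pass. Its share of Cox7a2 and Cox7a1 together reached 17.2% in ND nontumor liver, 18.3% in KD nontumor liver and 14.4% in ND tumors. In KD tumors the share was 3.08% to 4.94%. The 5 listed striated muscle markers summed to 1.04 to 8.79 rescaled TPM over all libraries, and up to 4 of the 5 were at 0 in a library. The 1 muscle marker with enough signal to be tested, Mylpf, was higher in ND tumors (3.44 to 4.61) than in ND nontumor liver (0.450 to 3.35). In KD nontumor liver Mylpf was at 1.27 to 6.38, where Cox6a2 was at 0 to 2.45. Acta1 and Myh4 were 0 in all ND tumors and reached 4.76 and 0.0622 in ND nontumor liver, and Tnnt3 and Actc1 overlapped. The part of muscle in the Cox6a2 values was not tested.

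Tumor against nontumor liver on the normal diet gave 3 members higher and 13 lower, beside 28.7% of all genes passing (14.5% higher and 14.2% lower). The median log2 fold change was -0.45 for complex I, -0.40 for II, -0.54 for III, -0.56 for IV and -0.33 for V, against -0.0024 for all genes; on the deposited scale these medians turned to 0.16, 0.22, 0.10, 0.00 and 0.28, where the median of all genes was 0.43. The split of calls was 5 higher and 11 lower on the common sum and 2 and 0 on the deposited scale. All-gene shares are not given for these scales, so these splits do not compare the members with other genes. The groups of 15 members did not overlap (27.5% of all genes). In the same comparison 5 of 5 Kupffer cell markers were lower (sums of 7.60 to 31.9 in ND tumors and 190 to 275 in ND nontumor liver), as were 4 of 4 red blood cell markers (273 to 1392 and 1204 to 6701), and 3 of 5 T and NK cell markers were higher (24.1 to 83.7 and 7.57 to 21.4). The part of these in the members' difference was not tested. All 36 complex I genes had fold changes below 0, and 7 of them fell.

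Of 87 members, 13 were lower in ND tumors, beside 14.2% of all genes, and some of these were small membrane subunits. Other membrane subunits, such as Cox7b, Uqcr10 and Ndufc1, did not pass (log2 fold changes of -0.14, -0.16 and -0.37). Cox6c, of complex IV, had 125, 196, 245 and 127 rescaled TPM in ND nontumor liver and 68.9, 88.3, 44.0 and 71.4 in ND tumors, and fell by 1.32 on the log2 scale (SE 0.30, adjusted p = 0.00378, limma). Atp5md, a small membrane subunit of complex V, had 78.5, 121, 148 and 93.3 against 45.2, 55.3, 30.2 and 49.1 and fell by 1.27 (SE 0.32, adjusted p = 0.00684, limma). Ndufb4, of the complex I membrane arm, and the noncoding row named Ndufb1 each fell by 1.19 (adjusted p = 0.00517 and 0.00916, limma), Ndufb1 from 90.3, 195, 183 and 110 to 75.8, 81.6, 36.4 and 55.6. Both groups were apart in each of these 4 genes, and all 4 calls held without any 1 library. Ndufb4, Cox6c and Atp5md were also among those higher in KD than in ND tumors, by 1.20, 1.31 and 1.30 (adjusted p = 0.0128, 0.011 and 0.0143, limma), a second set of calls named after their values were seen; the ND tumors enter both comparisons. Cox7c, the most abundant complex IV member, had 602, 928, 1001 and 676 in ND nontumor liver and 411, 550, 299 and 395 in ND tumors and fell by 0.95 (adjusted p = 0.0139, limma). In complex III, Uqcrb fell by 1.10 and Uqcrfs1 by 0.90 (adjusted p = 0.0186 and 0.044, limma), and Ndufb8 fell by 0.52 (adjusted p = 0.0196, limma). Of the 12 member calls named here, 6 held without any 1 library, and 5 were lost without ND tumor 3 and 4 without ND nontumor 3. The count of 16 became 8 without ND nontumor 3, 9 without ND tumor 3 and 10 without ND nontumor 2.

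A pair of members changed in tumors in the same direction on both diets. Cox7a2l, known as a factor that joins complexes III and IV into supercomplexes, had 17.0, 26.9, 33.8 and 23.9 rescaled TPM in ND nontumor liver and 44.6, 68.2, 39.0 and 49.8 in ND tumors. On KD it had 36.2, 45.2, 26.8 and 23.9 in nontumor liver and 68.6, 66.4, 125 and 74.4 in tumors. Neither pair of groups overlapped, and the rises were 0.97 ± 0.26 (adjusted p = 0.0106, limma) and 1.31 ± 0.26 (adjusted p = 0.00139, limma), both kept without any 1 library. Ndufv1, where electrons enter complex I, had 38.02, 46.6, 47.3 and 37.5 in ND nontumor liver and 35.6, 29.4, 27.6 and 26.4 in ND tumors, and 67.7, 57.0, 58.1 and 55.5 in KD nontumor liver and 30.4, 28.3, 44.0 and 43.5 in KD tumors. It fell by 0.50 on ND (adjusted p = 0.0382, limma; 0.12 in the other direction on the deposited scale, adjusted p = 0.934) and by 0.71 on KD (adjusted p = 0.00475, limma). The ND call was lost in 5 of 8 fits without 1 library, and the KD call in 0 of 8. On the deposited scale 0 members passed between KD tumors and KD nontumor liver, so the KD calls of Cox7a2l and Ndufv1 were lost there.

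On the ketogenic diet, tumor against nontumor gave 7 members higher and 1 lower, with 32.5% of all genes changed (16.3% higher and 16.2% lower). On the common sum 5 members were higher and 5 lower, and the all-gene share on that scale is not given here. The median log2 fold change was 0.34 for complex I, 0.27 for II, 0.54 for III, 0.61 for IV and 0.46 for V; on the deposited scale these were 0.01, -0.06, 0.21, 0.33 and 0.13 beside a median of -0.26 for all genes. Without 1 library they ranged from 0.07 to 0.53 for complex I, 0.09 to 0.37 for II, 0.04 to 0.79 for III, 0.22 to 0.81 for IV and 0.13 to 0.71 for V, and with the length trend removed they were 0.12, 0.05, 0.37, 0.11 and 0.36. Of the marker lists, 4 of 5 Kupffer cell markers were lower, and 3 of 5 monocyte and macrophage markers and 1 of 5 hepatocyte markers higher, in KD tumors than in KD nontumor liver; their part was not tested. Uqcrh, the hinge protein between cytochrome c and c1, had 116, 134, 55.9 and 58.2 rescaled TPM in KD nontumor liver and 158, 170, 209 and 208 in KD tumors, a rise of 1.12 ± 0.28 (adjusted p = 0.00566, limma). Cox7b rose by 1.31 ± 0.40, Ndufc1 by 1.16 ± 0.40, Uqcr10 by 1.11 ± 0.38 and Ndufb8 by 0.45 ± 0.16 (adjusted p = 0.0198, 0.0369, 0.0359 and 0.0356, limma). Cox7b had 296, 288, 63.8 and 173 in nontumor liver and 388, 366, 500 and 514 in tumors. Of the 8 calls, those of Cox7a2l, Ndufv1 and Uqcrh held without any 1 library, and 5 were lost without KD nontumor 3 or without KD tumor 3. The count of 8 became 3 without either of these, 5 without KD nontumor 4, KD tumor 1 or KD tumor 4, and 13 without KD nontumor 1. The non-overlapping members were 7, against 33.1% of all genes.

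In nontumor liver the diets could not be told apart at this number of libraries. By limma, 0 of 87 members passed, and 0.0447% of all genes did (0.00744% higher and 0.0372% lower); 8 members had an unadjusted p under 0.05 (8.91% of all genes), the groups of 5 did not overlap (5.98% of all genes), and voom on the recovered reads also called 0. The medians were -0.07 for complex I (0.05 on the common sum and 0.85 on the deposited scale), 0.34 for II, 0.13 for III, 0.20 for IV and 0.19 for V. On the deposited scale the listed genes of ND nontumor 4 held 7.38% of the TPM total, against 66.8% to 88.4% in KD nontumor liver. Without 1 library the complex I median ranged from -0.33 to 0.24. Sdhd had 61.1, 69.6, 73.8 and 73.9 rescaled TPM on KD against 39.2, 47.6, 48.4 and 34.9 on ND, without overlap (adjusted p = 0.228, limma). Sdha had 43.7, 47.4, 32.6 and 34.8 against 23.9, 32.3, 30.1 and 22.8, also without overlap (adjusted p = 0.476, limma). Ndufv1, Atp5b and Cyc1 of other complexes were likewise higher on KD without overlap and did not pass (adjusted p = 0.369, 0.371 and 0.59, limma).

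Whether the diet effect differed between tumor and nontumor liver was tested as an interaction, and 1 of 87 members, Ndufa4l2, passed, and it was lower (0.61% of all genes, 0.208% higher and 0.402% lower). An unadjusted p under 0.05 was found for 34 members, and for 17.9% of all genes. The median interaction was 0.95 for complex I, 0.52 for II, 1.12 for III, 1.00 for IV and 0.87 for V; on the deposited scale it was -0.02, -0.44, 0.22, 0.23 and -0.05 beside -0.67 for all genes, and that of complex II was -0.06 on the common sum.

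Among the 3 complex I copies, Ndufs6b had 0, 1.73, 0 and 0.396 rescaled TPM in ND tumors and 7.07, 4.55, 9.08 and 3.97 in KD tumors, on 0 to 24 reads a library. It rose by 2.30 ± 0.46 (adjusted p = 0.00504, limma), and against KD nontumor liver by 1.26 ± 0.46 (adjusted p = 0.0435, limma), the latter lost in 5 of 8 fits without 1 library. Ndufa12-ps had 18.5 to 36.5 in ND tumors and 13.1 to 31.3 in KD tumors, and Ndufb4c was not called in any comparison. How reads shared by near-identical copies were assigned was not given in the sources used here, so the values of these copies and of the genes they derive from are uncertain.

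The complexes are built with the help of assembly factors. Of 49 assembly factors tested, 9 were higher and 0 lower in KD than in ND tumors, and their median was 0.49 against 0.03 for all genes; 7 of the 9 act on complex IV. The all-gene share was 7.21% higher and 8.49% lower. With genes scaled to a common sum the split turned to 1 higher and 3 lower (2.03% and 19.4% of all genes), and on the deposited scale it was 0 and 0. Sco1, a copper chaperone of complex IV, had 0.547, 1.64, 1.16 and 3.02 rescaled TPM in ND tumors and 4.08, 4.08, 5.26 and 5.89 in KD tumors, a rise of 1.24 ± 0.29 (adjusted p = 0.0115, limma). Coa6, also needed for copper insertion, had 27.0, 43.8, 33.0 and 37.8 against 49.6, 68.8, 126 and 112 and rose by 1.23 ± 0.37 (adjusted p = 0.0357, limma). Tmem70, for complex V, rose by 0.79 and Tmem186, for complex I, by 0.77 (adjusted p = 0.0271 and 0.0474, limma). Cox15, which makes heme A for complex IV, was higher in tumors than in nontumor liver on KD, by 0.70 ± 0.16 (adjusted p = 0.00359, limma), as were Ndufaf8, Ndufaf5, Cmc1 and Tmem70 (6 assembly factors higher and 1 lower in all, beside 16.3% and 16.2% of all genes; 2 and 2 on the common sum). The calls of Ndufaf8, Ndufaf5 and Cmc1 were each lost in 4 of 8 fits without 1 library, among them those without KD nontumor 3 or KD nontumor 4 and, with those of Sqor and Yy1, the fit without KD tumor 3. Foxred1, for complex I, fell in tumors on both diets, by 0.75 and 0.89 (adjusted p = 0.0157 and 0.00539, limma). Taco1 and Lrpprc, which act on the mitochondrial messages of complex IV, fell in ND tumors by 1.31 and 0.62 (adjusted p = 0.0381 and 0.0335, limma). In ND tumors 0 of 49 assembly factors were higher and 3 lower than in nontumor liver, beside 14.5% and 14.2% of all genes. On the common sum 5 were higher and 0 lower. For tumor against nontumor liver the all-gene shares on that scale are not given here. The Taco1 call was lost in 5 of 8 fits without 1 library and the Lrpprc call in 4 of 8, in both cases without ND nontumor 2 or 3 and without ND tumor 1 or 3.

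Genes that feed electrons into ubiquinone or cytochrome c by other routes were mostly lower in ND tumors: of 9 tested, 6 were lower and 1 higher, beside 14.2% and 14.5% of all genes, and 5 lower and 1 higher on the common sum. On the deposited scale 1 was lower and 0 higher. All-gene shares are not given for these alternative scales. Prodh, proline dehydrogenase, had 47.6, 67.4, 65.0 and 81.8 rescaled TPM in ND nontumor liver and 6.20, 6.21, 4.33 and 4.73 in ND tumors and fell by 3.37 (SE 0.29, adjusted p = 6.97e-07, limma), and by 3.17 on KD (adjusted p = 1.86e-06, limma). Suox, sulfite oxidase, fell by 1.76 on ND (adjusted p = 0.00685, limma), and Chdh, choline dehydrogenase, by 1.30 on KD (adjusted p = 0.00946, limma). Sqor, which oxidises sulfide, rose by 0.94 and 0.83 (adjusted p = 0.00715 and 0.0142, limma). Gpd2, the mitochondrial glycerol 3-phosphate dehydrogenase, had 2.59, 3.31, 1.19 and 2.69 in ND tumors and 5.70, 8.54, 9.85 and 9.38 in KD tumors, beside 5.18 to 6.88 and 4.98 to 5.55 in ND and KD nontumor liver. It was 1.46 ± 0.20 higher in KD than in ND tumors (adjusted p = 0.000814, limma), and its interaction of 1.55 ± 0.29 passed (adjusted p = 0.0264, limma) but was lost in 8 of 16 fits without 1 library and on the common sum (1.10, adjusted p = 0.0726) and deposited (0.87, adjusted p = 0.566) scales. Etfdh, which passes electrons from fatty acid oxidation to ubiquinone, had 5.32, 6.16, 5.15 and 7.63 in ND tumors and 9.67, 11.1, 17.4 and 19.1 in KD tumors, a rise of 1.08 ± 0.20 (adjusted p = 0.00368, limma). In KD tumors, 2 of the 9 were higher and 0 lower than in ND tumors, beside 7.21% and 8.49% of all genes. On the common sum these counts were 1 and 0, beside the all-gene shares given for the assembly factors on that scale. The Etfdh call was lost there (adjusted p = 0.0585, limma).

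Among 15 genes of ubiquinone synthesis and cytochrome c, 3 were higher in KD than in ND tumors and 0 lower, beside 7.21% and 8.49% of all genes. On the common sum 0 were higher and 1 lower, beside the all-gene shares given for the assembly factors on that scale. Cycs, cytochrome c, had 33.6, 33.1, 30.5 and 24.9 rescaled TPM in ND tumors and 48.1, 45.5, 55.2 and 54.6 in KD tumors, a rise of 0.72 ± 0.23 (adjusted p = 0.0469, limma) that was lost in all 8 fits without 1 library, at adjusted p up to 0.111. Coq8b, a kinase-like protein of ubiquinone synthesis, rose in tumors on both diets, by 1.79 ± 0.25 and 1.57 ± 0.25 (adjusted p = 7e-05 and 0.000255, limma), and Coq10a, a ubiquinone-binding protein, fell by 1.51 and 1.65 (adjusted p = 0.000254 and 0.000146, limma). Coq10b was lower in ND tumors than in ND nontumor liver and 1.04 ± 0.26 higher in KD than in ND tumors (adjusted p = 0.0168, limma). Atpif1, the inhibitor of ATP hydrolysis by complex V, had 7.79, 8.66, 10.7 and 16.2 in ND nontumor liver and 33.7, 40.0, 17.5 and 49.5 in ND tumors. It rose by 1.57 ± 0.36 on ND and 1.98 ± 0.36 on KD (adjusted p = 0.00379 and 0.000703, limma). Ucp2, an uncoupling protein, rose by 1.32 and 1.49 (adjusted p = 0.00684 and 0.00292, limma). Ndufab1 was 0.91 ± 0.26 higher in KD than in ND tumors (adjusted p = 0.0269, limma).

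Of 16 genes tested that regulate nuclear genes for mitochondrial proteins or act on mitochondrial DNA, 0 were higher and 2 lower in KD than in ND tumors. The all-gene share was 7.21% higher and 8.49% lower. Ppargc1b, a coactivator of mitochondrial genes, had 5.97, 5.69, 3.77 and 3.76 rescaled TPM in ND tumors and 1.92, 0.970, 2.08 and 2.08 in KD tumors, and fell by 1.07 (SE 0.30, adjusted p = 0.0271, limma), and by 1.32 from KD nontumor liver (adjusted p = 0.00359, limma). Polrmt, the RNA polymerase of mitochondria, fell by 0.61 between these tumors and by 0.72 from KD nontumor liver (adjusted p = 0.0247 and 0.00411, limma). Ppargc1a, the related coactivator, had 2.84, 1.89, 2.09 and 2.39 in ND nontumor liver and 0.880, 0.975, 1.10 and 1.31 in ND tumors and fell by 0.67 (adjusted p = 0.0214, limma). Yy1 was 0.62 higher in tumors on KD and Twnk, the helicase of mitochondrial DNA, 0.51 higher in tumors on ND (adjusted p = 0.0221 and 0.0455, limma); the Yy1 call was lost in 3 of 8 fits without 1 library and the Twnk call in 6 of 8. Of the 11 pathway genes named for KD against ND tumors, Coq10b, Etfdh, Gpd2 and Sco1 kept their calls without any 1 library; 7 were lost without KD tumor 3 and 6 without KD tumor 2 or ND tumor 1.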

How the data were processed

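The authors deposited TPM per gene from polyA RNA-seq of 16 libraries; FastQC, HISAT2, SAMtools, featureCounts and mm10 stand in the submitters' processing notes, with versions not given in the sources used here. Columns were matched to samples by name; nontumor columns carry P where the sample titles carry N. Genes that reached 1 TPM in 4 or more libraries were kept, rescaled by median-of-ratios factors over 12119 genes above 0 in every library, and tested as log2(rescaled TPM + 1), pseudocount 1, in 1 limma fit (limma 3.58.1, R 4.3.3; Python 3.11.15, pandas 2.3.3, matplotlib 3.10.9) over 16 libraries without a block. A fold change on this scale understates the change of low genes. The steps were tested on simulated data. With GENCODE M21 exon lengths, 97.8% to 98.1% of values checked gave whole reads within 0.02; depth was 3473000 to 13921000 reads, and voom on these reads was an alternative chosen after seeing the data. Members named are, per complex and comparison, up to 2 passing rises and 2 falls without overlap, set catalytic subunits and isoform pairs, the highest and lowest of each complex, and up to 2 passing genes in each direction per pathway list; other members named are given as examples chosen after their values were seen. Members and lists were chosen with earlier results of these data known.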

Additional observations from a re-analysis of the deposited data

Results flagged for a closer look

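Of 216 groups of 4 libraries checked for a library far from the other 3, 5 had one, and chance alone gives about 1 in 20. KD tumor 3 had a mean complex IV level of 6.207 log2 units against 5.743 to 5.821 in the other KD tumors, and a Cox7a2l level of 125.3 rescaled TPM against 66.44 to 74.42. ND tumor 3 had 128.9 rescaled TPM of Cox4i1 against 204 to 216.2. KD nontumor 3 had 87.3 of Sdhb against 162.4 to 168.6. ND nontumor 2 had 0.3279 of Cox6a2, from 1 read, against 0 in the other libraries of its group. By the limma interaction test, the diet effect passed as different between tumor and nontumor liver for Ndufa4l2 (-1.99 log2 units) and for Gpd2 (1.546). The Ndufa4l2 call was lost in 11 of 16 fits without 1 library, and also on the deposited scale, with a pseudocount of 0.1, with no filter on low values, with the replicate block and with voom. The Gpd2 call was lost in 8 of 16 such fits, on the deposited and common-sum scales, with no filter and with the block.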

How the results depend on the processing

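On the deposited TPM scale, with no rescaling, the members passing were 2 for ND tumors against their nontumor liver, 0 for the same contrast under KD, 2 between the diets in tumors and 0 for the interaction, and the pathway genes passing were 2, 3, 0 and 0. The medians of complexes I to V on that scale were 0.156, 0.221, 0.103, 0.000837 and 0.284 for tumor against nontumor on ND, 0.854, 1.23, 1.08, 1.04 and 1.05 for the diets in nontumor liver, and -0.0234, -0.436, 0.224, 0.226 and -0.0494 for the interaction. The listed genes of ND nontumor 4, which enters these 3 comparisons, held 7.38% of the TPM total, against 66.8% to 88.4% in KD nontumor liver. Complex II was -0.0624 for tumor against nontumor on KD, and Ndufv1 turned to 0.116 on ND. Scaled to a common sum, 23 members and 8 pathway genes passed between the tumors and 3 members the interaction. The split of pathway genes turned on that scale from 14 higher and 2 lower to 2 and 6 between the tumors, from 3 and 15 to 10 and 7 for tumor against nontumor under ND, from 10 and 7 to 3 and 13 under KD, and from 1 and 0 to 0 and 1 for the interaction. With no filter on low values, 5 members passed for tumor against nontumor on KD, 18 members and 9 pathway genes between the tumors, and 0 of either for the interaction. Fitting only the groups compared gave 3 members on KD and 58 between the tumors. Array weights gave 27 members on ND, 4 members and 1 pathway gene for the diets in nontumor liver, and 2 for the interaction. Removing the length trend gave 27 members on ND and a complex IV median of 0.114 on KD. The interaction had 0 members with a pseudocount of 0.1 and 0 with voom. The share of all genes called is not given beside these counts, so a larger or smaller count does not compare the members with other genes. The cause of these changes was not tested. Leaving out 1 library gave 8 to 19 members on ND, 3 to 13 on KD, 0 in nontumor liver, 10 to 34 between the tumors and 0 to 2 for the interaction, and 14 to 23, 9 to 21, 0, 5 to 15 and 0 to 1 pathway genes.

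Whether equal replicate numbers mark 1 mouse was not given. Correlations of same-numbered libraries were -0.112 to 0.164 between tumor and nontumor of 1 diet. They were -0.288 to 0.164 over all groups compared, which includes pairs from different diets that cannot share a mouse. Low correlations cannot exclude that equal numbers mark 1 mouse. With diet and replicate number together as a block, tumor against nontumor gave 12 members under ND and 4 under KD. The interaction gave 0 members and 0 pathway genes. For the diets the block was the replicate number alone, which joins libraries of different mice. It gave 0 members in nontumor liver and 25 between the tumors, and does not bear on which libraries share a mouse.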
